A study of Mus musculus with 27 samples.

Results

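Long intergenic noncoding RNAs (lincRNAs) of the mouse tibialis anterior muscle were followed after volumetric muscle loss (VML), the surgical removal of a piece of muscle. The set was chosen by level, as the genes annotated as lincRNA that reached an FPKM (reads of a gene normalised for its length and for the size of the library) of at least 1 in 5 or more of the 27 samples, without H19, Meg3 and genes of chromosomes X and Y. Of 5559 lincRNAs among 54532 annotated genes, 248 met this rule, and 2810 were at 0 in every sample. The samples came from C57BL/6 males that were 8 weeks old, and 40% of the tibialis anterior was excised. The series record describes an injury of 1 leg, whereas the methods of the study describe both legs. The groups were 5 uninjured muscles and muscles taken on day 3 (5 samples), day 7 (6), day 14 (6) and day 21 (5) after VML, with no treatment other than the excision. No genetic change was described for any group. Whole muscle was sequenced, so a fall in the RNA of 1 cell type and a fall in the number of its cells cannot be told apart, and this holds for every result. The labels do not say whether any muscles came from the same mouse, so p-values measure the spread between these samples.

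LincRNAs are transcribed by RNA polymerase II from their own promoters, and most are spliced and polyadenylated but encode no known protein. Some act as RNAs, by building nuclear bodies, binding proteins or binding microRNAs (miRNAs), and others are known mainly as precursors from which miRNAs or small nucleolar RNAs (snoRNAs) are cut. In skeletal muscle, lincRNA loci lie within the myosin heavy chain cluster and beside the muscle miRNAs that guide myoblast differentiation.

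Among the 248 lincRNAs, 12 had an annotated miRNA inside the gene, and a mature miRNA is the part of such a transcript whose function is best known. The sequences that follow are those carried by the host transcripts that the results turn on, from RefSeq (GRCm38.p6), with the seed (bases 2 to 8) in capitals. The miRNAs themselves were not measured. Gm28653 carries miR-206 (chr1:20679055-20679076, plus strand) and miR-133b (chr1:20682834-20682855, plus strand), a pair known from muscle.

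mmu-miR-206-3p: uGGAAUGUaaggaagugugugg

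mmu-miR-133b-3p: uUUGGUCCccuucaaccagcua

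Mir142hg carries miR-142, which is known from blood cells (5p arm chr11:87756867-87756887, 3p arm chr11:87756903-87756925, plus strand).

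mmu-miR-142a-5p: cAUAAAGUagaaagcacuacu

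mmu-miR-142a-3p: uGUAGUGUuuccuacuuuaugga

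Mir17hg carries the miR-17 to miR-92 cluster of chromosome 14, known from dividing cells. In it, miR-17 (chr14:115043684-115043706) and miR-20a (chr14:115044183-115044205) share a seed, and miR-19a (chr14:115044048-115044070) and miR-19b (chr14:115044358-115044380) share another, all on the plus strand.

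mmu-miR-17-5p: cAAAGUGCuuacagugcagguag

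mmu-miR-20a-5p: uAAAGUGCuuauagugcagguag

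mmu-miR-19a-3p: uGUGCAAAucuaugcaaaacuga

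mmu-miR-19b-3p: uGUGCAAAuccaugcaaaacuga

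2900076A07Rik carries miR-1839 (chr7:81529919-81529940, plus strand).

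mmu-miR-1839-5p: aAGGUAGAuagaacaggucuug

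The lincRNAs were low in level. The median of their mean FPKM over 27 samples was 1.53, against 4.18 for 10356 protein-coding genes that met the same FPKM rule. Only 29 lincRNAs had a mean FPKM of at least 10, whereas 149 had a mean under 2. All samples reached an FPKM of 1 for 51 lincRNAs, and 16 met the rule with exactly 5 samples. For 31 lincRNAs no uninjured sample reached 1, so these entered the set through injured muscle, and their direction follows from the rule. Just inside the threshold, the FPKM of the fifth highest sample was 1.003 for Gm20186 and 1.009 for Gm46515, and just outside it was 0.99991 for Gm44647 and 0.993 for Gm37584. The spread between replicates was wider than for coding genes. The median SD of log2(FPKM + 1) within a group was 0.357 to 0.515 for the lincRNAs and 0.185 to 0.333 for the coding genes.

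The genes were also short and close to coding genes. Their median gene length in the table was 1047 bases, against 4129 for the coding genes. The annotation (GENCODE M21, GRCm38) placed 35 of them over the body of a coding gene, and 22 shared exonic bases with one. The library kit did not record the strand, so reads of these 22 and of their partners cannot be told apart where they overlap. Another 95 lay within 5000 bases of a coding gene, of which 48 were head to head with it. Of the 248, 154 had an entry in the RefSeq table, of which 145 were listed there as long noncoding RNA and 7 as protein-coding, Zfp469 among the latter.

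The libraries held 14376395 to 24436763 assigned reads, and 9 of 27 lay nearer to the mean of another group than to their own. Libraries within a group were uneven on day 7, where the myofibre markers summed to an FPKM of 27876 to 103280. Markers of several cell types changed with time. All 7 myofibre markers were called lower on day 3, and their summed FPKM went from a median of 93342 (86477 to 102458) in uninjured muscle to 42734 (21754 to 64404) on day 3 and 80537 (74278 to 109654) on day 21. All 7 macrophage markers were called higher on day 3, with a summed FPKM of 22.3 (16.2 to 24.8) in uninjured muscle, 1414 (313 to 2144) on day 3 and 45.4 (31.1 to 57.0) on day 21. Of the fibroblast markers 5 of 6 were called higher on day 3 (105 to 549), and of the proliferation markers 4 of 4 (0.284 to 15.4). Of 5 endothelial markers, 2 were called lower on day 3 (summed FPKM 61.8 to 48.7), and the 3 Schwann cell markers, at 43.5 and 8.44, were not called. The lymphocyte markers summed to between 0.871 and 1.66 in median, and only 1 of 4 was high enough to be tested. The part of these cell changes in the results on lincRNAs was not tested.

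Each time point was compared with uninjured muscle on log2(FPKM + 1) with limma over all 14630 genes tested, and a gene was called at a Benjamini-Hochberg adjusted p under 0.05. All 248 lincRNAs were tested. The 4 comparisons share the same uninjured samples. On day 3, 22 lincRNAs were called higher, where 23.4% of all genes tested were called higher, and 65 were called lower, where the background was 19.8%. As shares of the 248, this was 8.87% higher and 26.2% lower. Among the 217 lincRNAs with an uninjured sample at or above 1, 10 were higher and 65 lower. This restriction removed only lincRNAs under 1 in every uninjured sample, so its split is tilted toward lower calls. On day 7, 17 were higher (background 15%) and 44 lower (14.4%). These were 6.85% and 17.7% of the lincRNAs, against 17.3% and 17.5% of the coding genes. On day 14, 17 were higher (9.02%) and 25 lower (11.3%). These were 6.85% and 10.1% of the lincRNAs, against 10.7% and 14.2% of the coding genes. On day 21, 9 were higher (1.74%) and 5 lower (1.69%). These were 3.63% and 2.02% of the lincRNAs, against 1.98% and 2.06% of the coding genes. In either direction, 87 lincRNAs were called on day 3 (43.2% of all genes), 61 on day 7 (29.4%), 42 on day 14 (20.3%) and 14 on day 21 (3.43%). With the deposited FPKM, lincRNAs called lower thus outnumbered those called higher up to day 14. On day 14 all genes leaned the same way (9.02% higher and 11.3% lower). With TPM or read totals as the scale, described below, the lean was reversed on these days. The day 7 count of higher calls was 11 without uninjured replicate 4. On day 21 the count of higher calls was 5 without uninjured replicate 1 or 5, 4 without uninjured replicate 4 or day 21 replicate 2, and 3 without uninjured replicate 2 or day 21 replicate 1. The day 21 count of lower calls was 3 without any 1 of the 5 uninjured samples or without day 21 replicate 1 or 5.

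**Figure D1:**
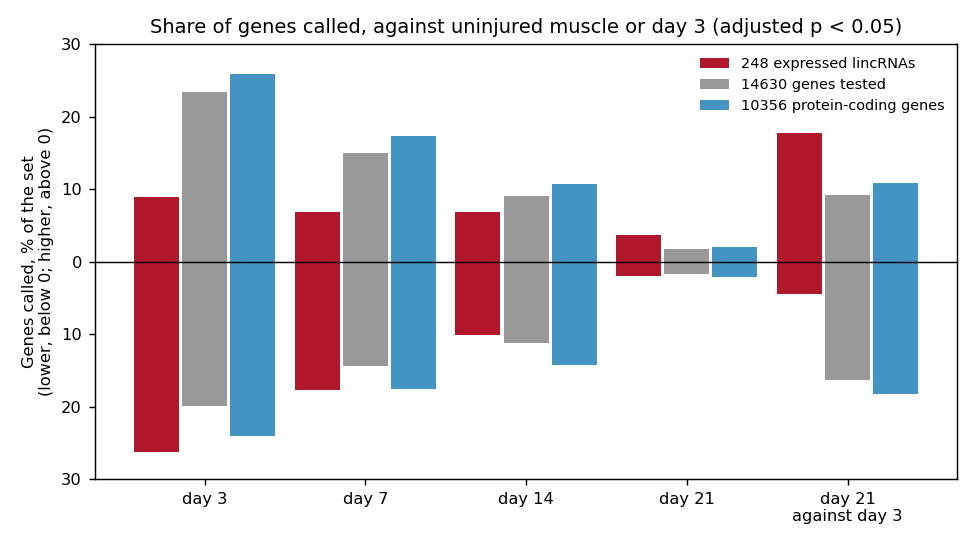
Percent of genes called higher (above 0) and lower (below 0) in each comparison, for the 248 lincRNAs, all 14630 genes tested and 10356 coding genes that met the same FPKM rule. On day 3 the lincRNAs had 8.87% called higher and 26.2% called lower, against 23.4% and 19.8% of all genes.

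The split between higher and lower calls depended on how samples were scaled, so directions are best read against the median of all genes. After rescaling each sample to the same FPKM sum (TPM), 54 lincRNAs were higher and 25 lower on day 3, while the median of all genes moved up by 0.62 on the log2 scale. With the total of assigned reads as denominator, 43 were higher and 31 lower, and the all-gene median moved up by 0.40. On day 7 the splits were 50 higher and 14 lower with TPM and 36 and 21 with read totals. On day 14 they were 34 and 9 with TPM and 35 and 10 with read totals, and on day 21 they were 5 and 1 and 6 and 1. With the deposited FPKM the median of all genes moved by 0.012 on day 3. Relative to the all-gene median, the median log2 fold change of the lincRNAs on day 3 was -0.29 with the deposited FPKM, -0.44 with TPM, -0.35 with read totals, -0.32 after quantile normalization and -0.57 with limma-voom. Thus the lincRNA median lay below that of all genes on day 3 under all 5 scalings, although the balance of calls turned. For TPM and read totals this was largely given in advance. Both multiply all genes of a sample by 1 factor, which subtracting the all-gene median largely removes. The limma-voom fit took its library sizes from the deposited FPKM, so the 5 values are not independent. The same difference with the deposited FPKM was -0.17 on day 7, -0.013 on day 14 and 0.058 on day 21. On day 3, 78 of 248 lincRNAs lay above the all-gene median, and on day 21 this number was 142.

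The time of the most extreme mean was counted for the lincRNAs that were called with the deposited FPKM, as a description with no test. Over the 4 time points 101 lincRNAs were called at least once, of which 34 rose and 67 fell, each in a single direction, and 147 passed the test at no time point. Of the 67 that fell, 52 had their lowest mean on day 3, 12 on day 7, 1 on day 14 and 2 on day 21. Of the 34 that rose, 17 had their highest mean on day 3 and 12 on day 14, with 3 on day 7 and 2 on day 21. The 65 called lower on day 3 had log2 fold changes of -2.87 to -0.43, with a median of -1.02 on day 3, -0.81 on day 7, -0.67 on day 14 and -0.38 on day 21. The 22 called higher on day 3 ran from 0.51 to 3.24, with a median of 1.19 on day 3, 0.76 on day 7, 0.53 on day 14 and 0.45 on day 21. Both groups were chosen by their day 3 values, so that a smaller later median is in part given by the choice. First calls after day 3 were mostly increases, with 3 on day 7, 8 on day 14 and 1 on day 21, against 2 first decreases on day 7. The increases include lincRNAs whose direction the rule fixed, such as Mir17hg and Gm37800. None of the counts in this paragraph was made over all genes, so they have no background to be read against.

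**Figure D2:**
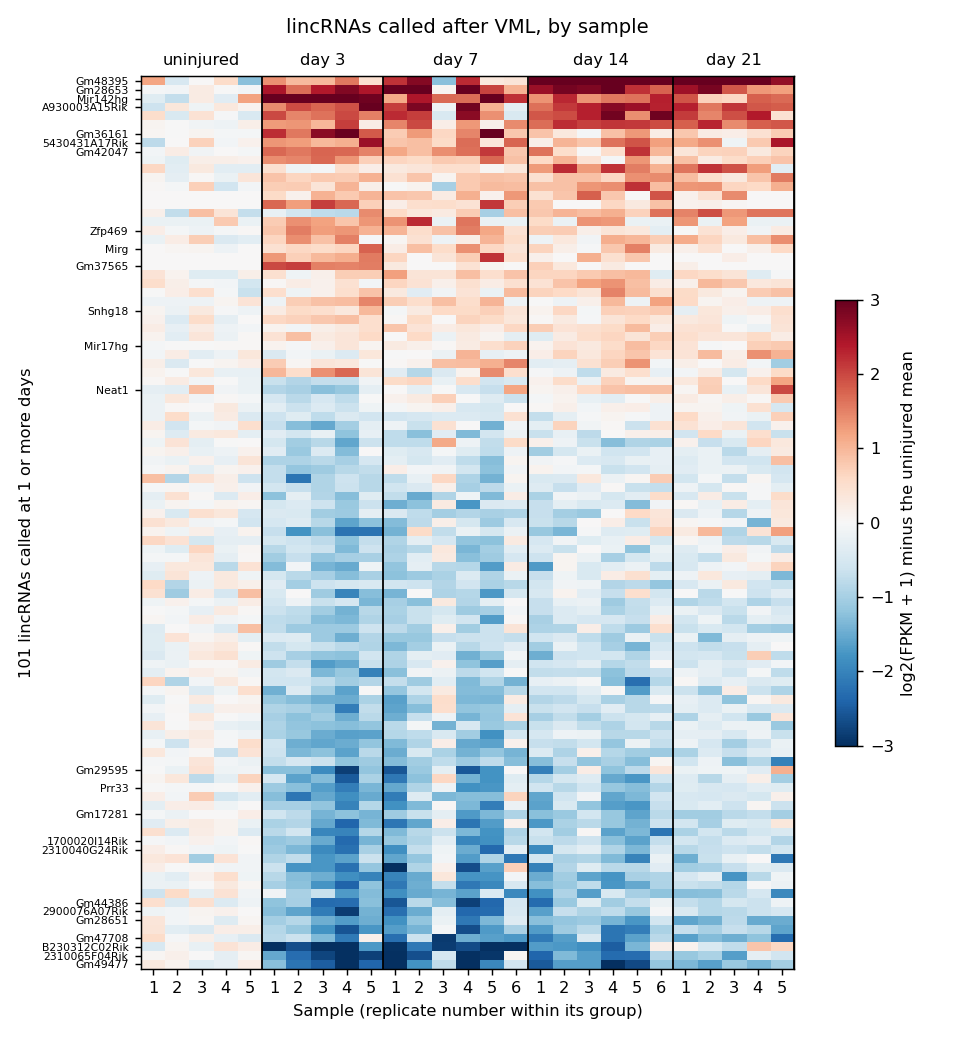
Difference of log2(FPKM + 1) from the uninjured mean for the 101 lincRNAs called at 1 or more time points (1 line each) in each of the 27 samples (columns, grouped by time). Of these, 67 were called lower and 34 higher, and the lower ones are palest on day 21.

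Samples of the groups did not overlap for a part of the lincRNAs. All day 3 samples were above all uninjured samples for 18 lincRNAs (19.8% of all genes tested) and below them for 44 (16.5%). The numbers were 7 above (7.25%) and 14 below (5.37%) on day 7, 10 above (7.67%) and 18 below (8.05%) on day 14, and 11 above (5.26%) and 15 below (5.13%) on day 21. When day 21 was compared directly with day 3, 44 lincRNAs were called higher on day 21, where 9.23% of all genes were, and 11 lower, where 16.2% were (25.5% of all genes in either direction). This comparison shares the day 3 samples with that of day 3 and uninjured muscle. Scaling changed this split also, to 19 higher and 22 lower with TPM and 25 and 19 with read totals, where the all-gene medians moved by -0.49 and -0.30. Without day 3 replicate 3 or 4, the 44 became 28 or 26, and without day 3 replicate 4 the 11 became 7.

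Gm28653, the host of miR-206 and miR-133b, rose at all 4 time points. It spans chr1:20669882-20684298 on the plus strand and covers the locus known as linc-MD1, an RNA of differentiating myoblasts. Its FPKM in the 5 uninjured samples was 0.0406, 0.0209, 0.292, 0.0878 and 0.0246, from 32 reads in all. On day 3 it was 4.96, 2.49, 4.69, 6.42 and 4.85, so that every day 3 sample lay above every uninjured sample. The day 7 samples ranged from 0.159 to 19.4 with a median of 5.67, and the lowest of them lay within the uninjured range. All day 14 samples (2.74 to 8.90, median 6.10) were above the uninjured ones. On day 21 the values were 5.31, 6.86, 2.97, 1.70 and 1.57, again without overlap. The log2 fold change was 2.34 (SE 0.50, adjusted p = 0.000585) on day 3, 2.30 on day 7, 2.57 on day 14 and 1.96 (SE 0.50, adjusted p = 0.0299) on day 21. Since 1 was added to each FPKM, these values understate the ratio of means, which was 50.3 on day 3. No uninjured sample reached an FPKM of 1, so the rule fixed the direction of Gm28653, as it did for Mir17hg and Mirg. The day 21 call was lost without uninjured replicate 1, 2, 4 or 5 or without day 21 replicate 1 or 2 (adjusted p of 0.0597 to 0.0978), and with TPM, read totals, quantile normalization, limma-voom or no filter (0.054 to 0.18). Day 21 did not differ detectably from day 3 (log2 difference -0.38, SE 0.50, adjusted p = 0.611).

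Mir142hg, the host of miR-142 (chr11:87755577-87757270, plus strand), had the largest log2 increase of the set on day 3. Its FPKM was 0.279, 0, 0.950, 0.302 and 2.79 in uninjured muscle, from 16 reads. On day 3 it was 16.9, 12, 15.9, 17.9 and 11.5, all above the uninjured samples. This was a log2 fold change of 3.24 (SE 0.37, adjusted p = 5.88e-07). The level was lower at each later time point. Day 7 samples ranged from 2.63 to 18.4 (median 5.46), day 14 samples from 3.17 to 7.25 (median 4.03), and the day 21 samples were 5.07, 1.68, 1.55, 4.70 and 4.33. Against uninjured muscle, the log2 fold change was 2.11 on day 7, 1.74 on day 14 and 1.33 (SE 0.37, adjusted p = 0.0433) on day 21. Day 21 was lower than day 3 by a log2 difference of -1.91 (SE 0.37, adjusted p = 0.000559). The day 21 increase was lost in 8 fits without 1 sample, namely without uninjured replicate 1, 2, 3 or 4 or day 21 replicate 1, 2, 4 or 5 (adjusted p of 0.053 to 0.117). It was also lost with TPM, read totals, quantile normalization, limma-voom, no filter or only the groups compared (0.0509 to 0.111). The 7 macrophage markers were also highest on day 3, with a summed FPKM of 1414 in median against 22.3 in uninjured muscle, and their part in this result was not tested. AW112010, an RNA known from immune cells, was not called at any time point, with a mean FPKM of 18.6 ± 2.29 (SD, n = 5) in uninjured muscle and 16.9 ± 8.20 (n = 5) on day 3.

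Mir17hg, the host of the miR-17 to miR-92 cluster, was called on day 14 alone, with an FPKM of 0.276 to 0.368 in uninjured samples and 0.420 to 1.53 (median 0.856) on day 14, without overlap. Its log2 fold change was 0.49 (SE 0.15, adjusted p = 0.0266), and the call was lost without uninjured replicate 1 or day 14 replicate 4 or 5 (adjusted p of 0.0522 to 0.0822), and with quantile normalization, limma-voom or no filter on low values (0.0573 to 0.097). Mirg, a transcript of the imprinted Dlk1-Dio3 domain that holds many miRNAs, had a mean FPKM of 0.252 in uninjured muscle. Its day 3 samples were 0.729, 0.922, 0.826, 0.951 and 3.23, all above the uninjured range, with replicate 5 far above the others. Mirg rose by a log2 fold change of 0.81 on day 3 (SE 0.25, adjusted p = 0.0114) and 0.68 on day 7 (SE 0.24, adjusted p = 0.0357). Without day 3 replicate 5 the day 3 call was just lost (adjusted p = 0.0502), and the day 7 call was lost in 8 fits without 1 sample, namely any 1 of the 5 uninjured samples or day 7 replicate 2, 4 or 5 (0.0525 to 0.101), and with quantile normalization or no filter (0.096 and 0.0825). Of the 12 lincRNAs with an miRNA inside the gene, 4 were higher and 2 lower on day 3 (23.4% and 19.8% of all genes), and the same numbers were found on day 7 (15% and 14.4%). On day 14, 5 were higher and 1 lower (9.02% and 11.3%), and on day 21, 3 were higher (1.74%). These counts include lincRNAs whose direction the rule fixed. They are Gm28653 at all 4 time points, Mirg on days 3 and 7 and Mir17hg on day 14. No test was made on this class.

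Of the 3 listed lincRNAs of muscle loci, Gm28653 rose on day 3, 2310065F04Rik fell, and Bvht was not called. 2310065F04Rik, known as linc-Myh, lies in the cluster of myosin heavy chain genes (chr11:67112461-67120080, minus strand) and has been described in fast fibres. Its FPKM was 53.5, 57.5, 52.0, 42.7 and 53.7 in uninjured samples and 17.1, 9.83, 6.80, 3.18 and 6.51 on day 3, without overlap. The day 7 samples ranged from 3.87 to 53.5 (median 6.71) and reached into the uninjured range. On day 14 (9.15 to 27.6, median 12.8) and day 21 (22.8, 26.1, 15.8, 42.4 and 34.2) all samples were below the uninjured ones. Its log2 fold change was -2.61 (SE 0.51, adjusted p = 0.000258) on day 3, -2.11 on day 7 and -1.80 on day 14. On day 21 it was -0.92 and did not pass the test (adjusted p = 0.323). Day 21 was higher than day 3 by 1.69 (SE 0.51, adjusted p = 0.0179), a call lost without day 3 replicate 4 (adjusted p = 0.0697).

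The myosin genes around linc-Myh did not move together on day 3. Myh3, the embryonic myosin, lies 10170 bases away tail to tail and went from a mean FPKM of 0.516 to 55.2 on day 3 (log2 fold change 5.16, past the threshold). Myh8, the perinatal myosin, went from 0.355 to 15.9 (3.30, adjusted p = 0.000907). Myh4, the myosin of the fastest fibres, lies 117949 bases away and went from 5195 to 1497 (-1.94, adjusted p = 0.000798). The adult myosins Myh2 (50947 bases away, -1.22, adjusted p = 0.0816) and Myh1 (79972 bases away, -0.39, adjusted p = 0.353) were not called.

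B230312C02Rik fell most of the set on day 3 and then came back. It spans chr2:180370491-180385885 on the minus strand, with the annotated Mir1a-1 gene 3163 bases and Mir133a-2 12494 bases away on the opposite strand. Its FPKM was 17.5, 26.6, 21.4, 33.8 and 29.2 in uninjured muscle and 1.63, 3.12, 1.65, 1.52 and 6.93 on day 3. Day 7 samples ranged from 0.990 to 4.94 (median 2.49) and did not overlap with uninjured samples either. Day 14 samples spread from 3.71 to 28.4 (median 7.05), and the day 21 samples, 27.1, 18, 14.6, 45.8 and 38.9, covered the uninjured range. The log2 fold change was -2.87 (SE 0.39, adjusted p = 4.77e-06) on day 3, -2.89 on day 7, -1.48 on day 14 and 0.07 on day 21 (adjusted p = 0.941). With TPM the day 14 value was -1.08 and was not called (adjusted p = 0.0661). Day 21 exceeded day 3 by 2.94 (SE 0.39, adjusted p = 3.41e-05), the largest such increase among the lincRNAs named here. The Mir133a-2 hairpin itself was not called at any time point, with a mean FPKM of 320 in uninjured muscle and 187 on day 3.

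Gm49477, 2900076A07Rik and Gm29595 also fell on day 3. Gm49477 went from a mean FPKM of 24.2 ± 4.93 (n = 5) to 4.56 ± 2.88 (n = 5) on day 3 (-2.29, adjusted p = 0.000585). Its samples lay below the uninjured range at all 4 time points, although the day 21 difference did not pass the test (-1.30, adjusted p = 0.139). 2900076A07Rik, the host of miR-1839, was at 33.2 ± 2.59 (n = 5) in uninjured muscle and at 3.77 to 13.2 on day 3 (-1.84, SE 0.35, adjusted p = 0.000182). Its coding neighbour Fsd2, a gene of striated muscle 1810 bases away, also fell on day 3 (-1.37, adjusted p = 0.00036). Without day 3 replicate 4, the later rise of 2900076A07Rik from day 3 to day 21 was no longer called (adjusted p = 0.0668). Gm29595 went from 7.99 ± 1.69 (n = 5) to 2.0 ± 1.15 (n = 5) on day 3 (-1.68, adjusted p = 0.005), and no gene of its identifier was found in GENCODE M21. Its call on day 7 was lost without uninjured replicate 3 or day 7 replicate 1 or 4 (adjusted p of 0.0537 to 0.0652) or without the filter on low values (0.0551). All 7 myofibre markers fell on day 3 beside these lincRNAs, and their part in these results was not tested. Bvht, described in cardiac precursor cells, was not called, with 9.39 ± 2.71 (n = 5) in uninjured muscle and 11.6 ± 1.73 (n = 5) on day 3.

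**Figure D3:**
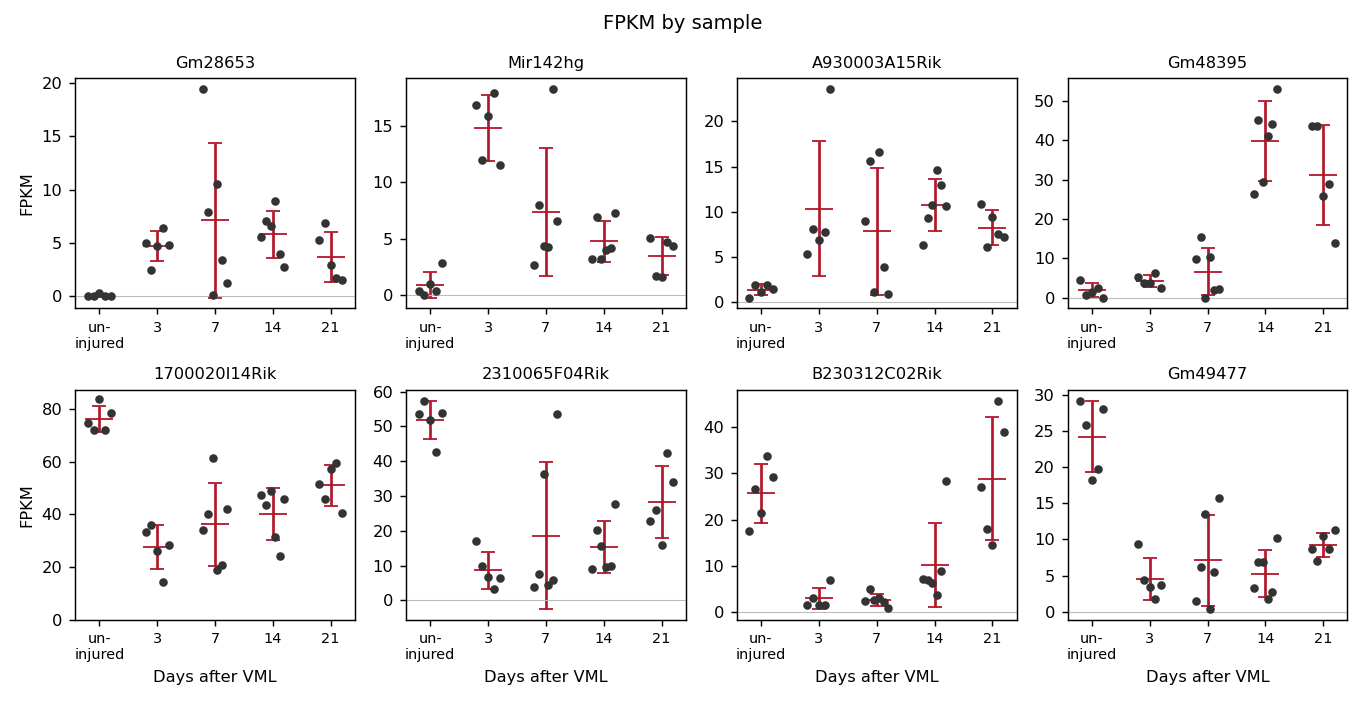
FPKM of 8 lincRNAs in each sample (grey points) by group, with the mean ± SD of the group in red and a separate linear axis per panel. Gm28653 and Mir142hg were near 0 in uninjured muscle, Gm48395 was high on days 14 and 21, and the lower panels show lincRNAs that were lowest on day 3 or day 7.

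Among the RNAs with a known cytoplasmic role, 1700020I14Rik fell, and its deposited FPKM stayed below the uninjured range. It is the mouse Cyrano gene (also Oip5os1), whose RNA directs the decay of miR-7. The uninjured samples were 74.7, 72.1, 83.7, 72.1 and 78.3 FPKM. The day 3 samples were 33.3, 35.8, 26.0, 14.4 and 28.3. All samples of day 7 (18.7 to 61.4, median 37.2), day 14 (24.3 to 48.7, median 44.7) and day 21 (40.7 to 59.7) were below every uninjured sample. The log2 change against uninjured muscle was -1.49 (SE 0.26, adjusted p = 7.22e-05) on day 3, -1.16 on day 7, -0.95 on day 14 and -0.58 on day 21, where it did not pass the test (adjusted p = 0.21). With TPM the value was -0.45 on day 7 (adjusted p = 0.143) and -0.48 on day 14 (adjusted p = 0.187), and neither was called. The day 14 call was also lost with read totals (-0.55, adjusted p = 0.0714) and quantile normalization (adjusted p = 0.0649). The increase from day 3 to day 21 was 0.91 (adjusted p = 0.0117) and was lost without day 3 replicate 4 (adjusted p = 0.0571), with TPM (0.30, adjusted p = 0.381) and with read totals (0.46, adjusted p = 0.116). Its neighbour Oip5, a centromere protein gene 2010 bases away tail to tail, rose on day 3 (1.05, past the threshold). 2900097C17Rik is the mouse Norad gene, whose RNA binds Pumilio proteins. It had 34.8 ± 6.59 (n = 5) in uninjured muscle and 20.7 ± 4.83 (n = 5) on day 3, with every day 3 sample below the uninjured range, but the difference missed the threshold (-0.74, adjusted p = 0.0757). Its transcript matches Gm7292 at 99.2% identity, so its reads could be split between the 2 genes.

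The nuclear RNAs had their lowest mean FPKM on day 3. Neat1 builds paraspeckles, and its FPKM in uninjured samples was 33.6, 32.2, 76.5, 37.8 and 35.2. On day 3 it was 21.7, 20.1, 16.4, 17.9 and 33.8, so that only replicate 5 overlapped with the uninjured samples. The day 3 difference was -0.90 on the log2 scale (SE 0.35, adjusted p = 0.039), and the call was lost without uninjured replicate 3 (adjusted p = 0.133), uninjured replicate 4, or day 3 replicate 1, 2, 3 or 4 (0.0537 to 0.0906). The value itself depended on scaling, since it was -0.10 with TPM (adjusted p = 0.762) and -0.26 with read totals (adjusted p = 0.476), and the call was also lost with quantile normalization (0.082) and without the filter on low values (0.0826). On day 21 the samples were 42.5, 68.8, 34.6, 52.6 and 164, above day 3 by a log2 difference of 1.49 (SE 0.35, adjusted p = 0.00286). Malat1, a nuclear speckle RNA next to Neat1 on chromosome 19, was not called against uninjured muscle (-0.72 on day 3, adjusted p = 0.0949). It was higher on day 21 than on day 3 by 0.99 (SE 0.34, adjusted p = 0.0355), a call lost without day 3 replicate 2, 3 or 4 or day 21 replicate 1, 2, 3 or 5 (adjusted p of 0.0504 to 0.101). The difference was 0.40 with TPM (adjusted p = 0.45) and 0.54 with read totals (adjusted p = 0.272), and it was also not called with quantile normalization or without the filter (0.0629 and 0.0758).

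The snoRNA hosts gave few calls. Of Snhg6, Epb41l4aos, Snhg20, Snhg18, Snhg12 and Snhg10, whose introns or exons hold snoRNAs or other small RNAs, Snhg18 on day 3 was the single call over the 4 time points. Its samples were 4.65, 3.79, 5.62, 4.21 and 3.82 in uninjured muscle and 5.35, 6.95, 6.68, 5.67 and 9.58 on day 3, with 1 uninjured sample inside the day 3 range. The increase was 0.52 on the log2 scale (SE 0.18, adjusted p = 0.0222), and it was lost without day 3 replicate 5 (adjusted p = 0.0779) or uninjured replicate 2 or 5 (0.053 and 0.0524), and with quantile normalization (0.0565). Snhg20 had its highest mean on day 21, 10.9 ± 4.07 (n = 5) against 5.37 ± 1.87 (n = 5), and missed the threshold (0.88, adjusted p = 0.0811).

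**Figure D4:**
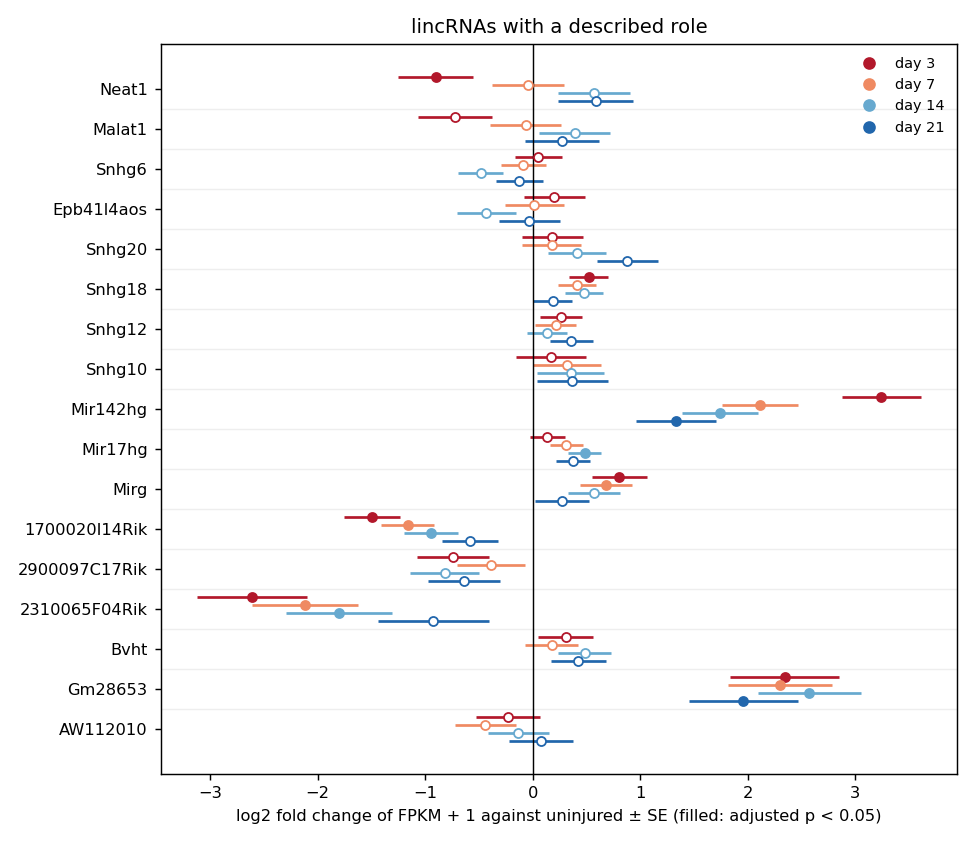
Log2 fold change against uninjured muscle (± SE) of the 17 lincRNAs with a known role, by time point, with filled symbols where the adjusted p was under 0.05. Gm28653 and Mir142hg were filled above 0 at all 4 time points, and 2310065F04Rik and 1700020I14Rik were filled below 0 on days 3, 7 and 14.

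A distinct time course was seen for Gm48395 (chr14:20215502-20221425, plus strand), which was high on days 14 and 21. The uninjured samples were 4.48, 0.717, 1.40, 2.51 and 0 FPKM, and the day 3 samples were 5.23, 3.65, 3.74, 6.14 and 2.32, which overlapped. Day 7 samples spread from 0 to 15.3 (median 5.98). All day 14 samples (26.3 to 53.1, median 42.7) and day 21 samples (43.5, 43.7, 25.8, 28.8 and 13.8) were above every uninjured sample. The log2 fold change was 1.07 on day 3 (adjusted p = 0.114), 1.11 on day 7 (adjusted p = 0.106), 4.05 on day 14 (SE 0.52, adjusted p = 8.18e-05) and 3.64 on day 21 (SE 0.54, adjusted p = 0.00152). Day 21 exceeded day 3 by 2.56 (SE 0.54, adjusted p = 0.00116). The nearest tested coding gene, the potassium channel gene Kcnk5, lies 33693 bases away head to head and was called higher on day 7 (1.13), day 14 (1.30) and day 21 (1.10). Its mean FPKM was 0.198 in uninjured muscle and 1.94 on day 14.

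In total, 10 lincRNAs were called higher on day 14 or 21 but not on day 3, a pattern that was not counted over all genes. Of the 9 higher on day 21, 4 were in this group: Gm48395, Gm13943 (log2 fold change 1.58), Gm37800 (1.32) and 2810405F17Rik (0.80), of which the last 3 were named after their values were seen. The other 5 were higher at all 4 time points, namely Gm28653, Mir142hg, A930003A15Rik, Gm17501 and 5730419F03Rik, the last 2 of them also named after their values were seen. Calls at all 4 time points, in either direction, were not counted over all genes either. Only 6 of the 9 had an uninjured sample at or above 1. For Gm37800, Gm28653 and 5730419F03Rik none reached 1, so the rule fixed their direction.

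A930003A15Rik, whose role is unknown, was at 0.533, 1.96, 1.14, 1.95 and 1.52 FPKM in uninjured muscle and at 5.32, 8.14, 6.93, 7.80 and 23.6 on day 3. Replicate 5 was the highest, and the other 4 also lay above every uninjured sample. Its log2 fold change was 2.09 (SE 0.47, adjusted p = 0.00091) on day 3, 1.41 on day 7, 2.28 on day 14 and 1.95 on day 21. The day 7 call was lost without uninjured replicate 1 or day 7 replicate 2 or 4 (adjusted p of 0.0554 to 0.0659), and the day 21 call without uninjured replicate 1 or day 21 replicate 1 (0.0579 and 0.0566). The day 7 call was also lost without the filter, with limma-voom or with only the groups compared (0.0524 to 0.0937), and the day 21 call without the filter, with TPM, read totals or limma-voom (0.0553 to 0.119). 5730419F03Rik went from a mean of 0.119 FPKM to 3.57 on day 14, its highest group, and as no uninjured sample reached 1 its direction was fixed by the rule. Gm17501, which starts 331 bases from the matricellular gene Cyr61 and points away from it, went from 1.01 to 2.51 on day 3 (0.82, adjusted p = 0.00238).

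The lincRNAs called lower at all 4 time points were Gm28651, Gm17281, Gm47708, 2610035D17Rik and Gm11752, the last 2 named after their values were seen. Gm28651 was at 5.50, 3.82, 4.28, 2.90 and 4.30 in uninjured muscle and at 0.692, 0.903, 1.94, 0.777 and 0.824 on day 21, without overlap. Its log2 fold change was -1.30 on day 3 and -1.36 (SE 0.28, adjusted p = 0.00959) on day 21, and its calls held under each alternative that was tried. Its head-to-head neighbour 3425401B19Rik, 355 bases away, also fell (-1.12 on day 3). Gm17281 went from 5.94 ± 0.659 (n = 5) to 2.35 ± 0.878 (n = 5) on day 3 and 2.66 ± 0.396 (n = 5) on day 21 (-0.93, adjusted p = 0.0151). With TPM its calls on day 3 (-0.51, adjusted p = 0.0927), day 7 (-0.50, adjusted p = 0.0877) and day 21 (-0.83, adjusted p = 0.141) were lost, and with read totals that of day 21 (adjusted p = 0.0547). Pacsin3, a membrane-bending protein gene of the opposite strand, fell also (-0.87 on day 3). The 2 genes overlap only at their starts, which lie 41 bases apart, and reads cannot be told apart there. Gm47708 went from 6.55 ± 2.04 (n = 5) to 1.54 ± 0.665 (n = 5) on day 21 (-1.58, adjusted p = 0.0239). That call was lost without uninjured replicate 1 or day 21 replicate 1 or 5 (adjusted p of 0.0524 to 0.0704), and its day 3 call (-0.95, adjusted p = 0.0493) without any 1 of uninjured replicates 1 to 4 or day 3 replicates 1 to 4 (0.0501 to 0.188). The day 3 value of Gm47708 was -0.39 with TPM (adjusted p = 0.502) and -0.45 with read totals (0.33). Its day 3 call was also lost with a pseudocount of 0.1, no filter, no trend or either replicate block (0.0502 to 0.153), and its day 21 call with a pseudocount of 0.1, no filter, TPM, read totals or limma-voom (0.0617 to 0.141).

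Several lincRNAs were near 0 before injury and highest on day 3. Gm37565 had no read in any uninjured sample and 2.93, 3.24, 1.85, 1.79 and 1.91 FPKM on day 3, from 120 reads. Against the level that 3 reads over the uninjured group would give, its day 3 mean was at least 26.6-fold higher (adjusted p = 2.39e-08). It was lower again on day 21, where 1 read was found (log2 difference from day 3 -1.69). Gm36161 was at 0 to 0.113 in uninjured samples and at 2.15 to 7.16 on day 3 (2.26, adjusted p = 2.27e-05), but its transcript matches Gm21188 at 95.7% identity and its level is uncertain. Gm42047 was at 0.211 to 0.525 and then at 2.66 to 3.36 (1.66), with a near copy in Gm48362 at 98.4% identity. Zfp469, which RefSeq lists as protein-coding, was at 0.111 to 0.414 and then at 1.18 to 2.54 (1.20). The day 3 samples of all 4 genes lay above all uninjured samples. All 4 were among the lincRNAs in which no uninjured sample reached 1, so the rule fixed their direction.

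The lincRNAs with the highest mean FPKM were 5430431A17Rik, 2310040G24Rik, Gm10076, Gm44386 and Prr33. 5430431A17Rik was at 48.0, 84.2, 135, 78.7 and 91.3 in uninjured muscle and at 210, 200, 165, 174 and 494 on day 3, without overlap (1.44, SE 0.40, adjusted p = 0.00498). Its calls on day 7 (1.01) and day 14 (1.13) were lost in 8 and 7 of the fits without 1 sample, namely without uninjured replicate 1, 2, 4 or 5, day 7 replicate 1, 2, 4 or 6 and day 14 replicate 4, 5 or 6 (adjusted p of 0.053 to 0.132). 2310040G24Rik went from 202 ± 17.2 (n = 5) to 73.6 ± 25.6 (n = 5) on day 3 (-1.51, adjusted p = 0.000885). Gm44386, which lies 25664 bases from it on chromosome 6 and the same strand, went from 172 ± 56.9 (n = 5) to 57.5 ± 23.1 (n = 5) (-1.61, adjusted p = 0.00255). Prr33 went from 94.0 ± 5.35 (n = 5) to 33.8 ± 8.62 (n = 5) (-1.49, adjusted p = 5.85e-05). It overlaps the bodies of 2 coding genes. Lsp1, a leucocyte actin-binding protein gene on the opposite strand, rose (1.91, adjusted p = 2.57e-07), and the other gene was not compared. Gm10076 was not called (1.35 on day 3, adjusted p = 0.129), and its sequence matches the ribosomal protein gene Rpl41 at 99.5% identity, so its reads are uncertain.

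The day 3 calls, with the deposited FPKM, were also counted in classes of lincRNA drawn by level and position. Of the 29 with a mean FPKM of at least 10, 3 were higher and 11 lower. Of the 70 from 2 to 10, 9 were higher and 30 lower, and of the 149 under 2, 10 were higher and 24 lower. Among the 48 head to head with a coding gene within 5000 bases, 2 were higher and 14 lower. Among the 23 downstream of a coding gene on its strand within 5000 bases, 1 was higher and 9 lower. Among the 14 tail to tail with a coding gene within 5000 bases, 2 were higher and 8 lower. Among the 118 farther than 5000 bases from any coding gene, 13 were higher and 26 lower. Among the 10 upstream of a coding gene on its strand within 5000 bases, 2 were higher and 1 lower. Among the 7 that RefSeq lists as protein-coding, 2 were higher and 1 lower. On the same day 23.4% of all genes were higher and 19.8% lower. The difference between classes was not tested, and the split of the whole set turned with TPM (54 higher and 25 lower).

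For 201 lincRNAs the nearest coding gene was also tested. On day 3, 72 of these lincRNAs were called. For 34 of them the neighbour was called too, in the same direction in 23 pairs and in the opposite one in 11. On that day 43.2% of all genes tested were called, and 49.8% of the coding genes that met the FPKM rule. On day 7, 50 of these lincRNAs were called, and both genes in 16 pairs, 13 in the same direction (29.4% of all genes and 34.8% of these coding genes were called). On day 14, 32 were called, and both genes in 10 pairs, 8 in the same direction (20.3% and 24.9%). From day 3 to day 21, 46 lincRNAs were called (25.5% of all genes and 29.1% of these coding genes were). Both genes were called in 15 pairs, 7 in the same direction and 8 in the opposite one. Across the 201 pairs the log2 fold changes on day 3 had a Spearman rho of 0.19 and a Pearson r of 0.043. These describe gene pairs measured in the same libraries, which are not independent, and carry no test.

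**Figure D5:**
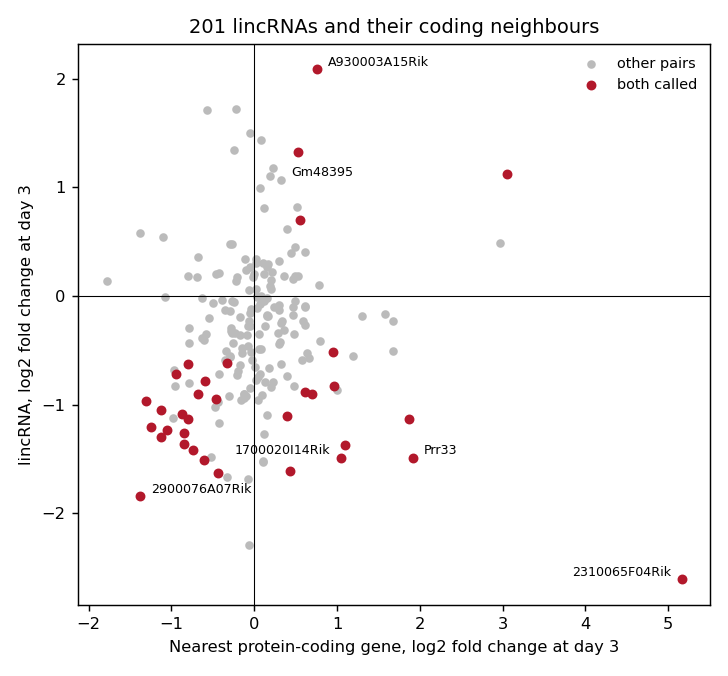
Log2 fold change on day 3 of each of 201 lincRNAs (vertical axis) and of its nearest tested coding gene (horizontal axis), with the 34 pairs in which both were called in red. The same-direction pairs numbered 23 and the opposite pairs 11, and all 201 pairs together had a Spearman rho of 0.19.

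Promoter sequences (250 bases before to 50 after the RefSeq start) were found for 128 of the 248 lincRNAs. The E box CAGCTG, a motif bound by MyoD and myogenin that reads the same on both strands, was present in 17.2% of them, against 16.1% of 27025 promoters of all genes. The AP-1 motif TGANTCA was in 8.59% of the lincRNA promoters against 7.93% of all, the GC box GGGCGG in 32.8% against 35.9%, and the ETS core GAGGAA in 26.6% against 28.3%, with both strands searched. Of the promoters, 12 belonged to lincRNAs higher on day 3 and 37 to lincRNAs lower, and the E box was in 4 and 6 of them, AP-1 in 0 and 1, the GC box in 4 and 8 and the ETS core in 3 and 12. Over the whole set the shares lay within a few percentage points of those of all promoters, and no test was made. The promoter of A930003A15Rik (chr16:19884225-19884524, minus strand, GRCm38.p6) is shown as that of a lincRNA which rose at all 4 time points and had 2 E boxes, in capitals.

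A930003A15Rik: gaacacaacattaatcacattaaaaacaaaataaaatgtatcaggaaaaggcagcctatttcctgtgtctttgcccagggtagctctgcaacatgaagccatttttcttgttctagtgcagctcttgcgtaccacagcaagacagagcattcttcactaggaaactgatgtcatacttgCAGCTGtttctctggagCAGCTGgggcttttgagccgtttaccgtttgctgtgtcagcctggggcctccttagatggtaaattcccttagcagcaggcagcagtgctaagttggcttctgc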

How the data were processed

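Polyadenylated RNA of 27 muscles was sequenced from libraries without strand information. Per the submitters' processing notes, the authors aligned reads with HISAT2 2.0.5 and counted them with featureCounts 1.5.0-p3, and they deposited FPKM per gene. The genome build was not given in the sources used here, but 98.3% of the genes found in GENCODE M21 (GRCm38) had the same coordinates there. FPKM times gene length gave whole reads (tolerance 0.05) for 100% of values. The denominator of FPKM differed from the read total by a factor of 0.747 to 1.48 between samples (mean 0.782 in uninjured muscle and 1.25 at day 3), so changes depend on the scaling.

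Groups were read from sample titles. The deposited FPKM were tested as log2(FPKM + 1) with limma 3.58.1 (R 4.3.3), in 1 fit of all 27 samples with an intensity trend, over 14630 genes that reached 0.5 FPKM in 5 or more samples. Two-sided p-values were adjusted by the Benjamini-Hochberg method over all genes tested. The fit was tested on simulated data. Alternatives were a pseudocount of 0.1, other filters, TPM, read totals, quantile normalization, limma-voom on recovered reads, no trend, a replicate block, only the groups compared, and leaving out each sample. Joint removal of day 3 and day 7 replicates 5 and 2 restrictions of the set were added after seeing the data.

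The named lincRNAs were members of role lists, the 5 largest changes in each direction at day 3, the 3 largest at the other days and the 5 highest means. Members and lists were chosen with earlier results of these data known. Read numbers limit values near 0, and floors cover counting error only.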

Additional observations from a re-analysis of the deposited data

Results flagged for a closer look

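Of 175 groups of samples examined for the named lincRNAs, 17 had 1 sample far from the others, where chance gives about 1 in 20. Among uninjured muscles these were Neat1 in replicate 3 (76.5 FPKM, the others 32.2 to 37.8), Gm28653 in replicate 3 (0.292), Gm10076 in replicate 2 (8.93) and Prr33 in replicate 5 (103). On day 3, replicate 5 stood apart for Mirg (3.23), 2900097C17Rik (12.4), A930003A15Rik (23.6) and 5430431A17Rik (494), and replicate 2 for Snhg12 (2.34). On day 7 they were replicate 6 for Bvht (25.6) and replicate 5 for Gm36161 (9.13). On day 14, replicate 1 was low for Epb41l4aos (4.18) and Snhg12 (1.46). On day 21 they were replicate 5 for Bvht (24.3) and Gm29595 (17.7), replicate 3 for Gm28651 (1.94) and replicate 1 for Gm37565 (0.121, with the others at 0).

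The change from uninjured muscle differed between day 21 and day 3 for 14 named lincRNAs, by the direct limma comparison of both time points. The log2 difference was positive for B230312C02Rik (2.94), Gm48395 (2.56), Gm29595 (1.74), 2310065F04Rik (1.69), Neat1 (1.49), 2900076A07Rik (1.19), Prr33 (1.08), Malat1 (0.99) and 1700020I14Rik (0.91). It was negative for Mir142hg (-1.91), Gm36161 (-1.77), Gm37565 (-1.69), Gm42047 (-1.11) and Zfp469 (-1.04).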

How the results depend on the processing

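Counts of called lincRNAs depended on the scaling and, on day 21, on single samples. With TPM the counts of higher and lower calls were 54 and 25 on day 3, 50 and 14 on day 7, 34 and 9 on day 14, 5 and 1 on day 21, and 19 and 22 for day 21 against day 3. With read totals they were 43 and 31, 36 and 21, 35 and 10, 6 and 1, and 25 and 19. Without the filter on low values, 8 were higher on day 7, 3 higher and 2 lower on day 21, and 7 lower on day 21 than on day 3. On day 21, quantile normalization left 5 higher, limma-voom 3 higher and 2 lower, and a pseudocount of 0.1 3 lower. A fit of only the groups compared gave 39 lower on day 14 and 15 higher and 14 lower on day 21. Among the 179 lincRNAs with a mean FPKM of at least 1, 14 were higher on day 3 and 11 on day 7. Among those with an uninjured sample at or above 1, 10 were higher on day 3, 6 on day 7 and 9 on day 14, and 5 were lower on day 21 than on day 3. The cause of these differences was not tested, beyond the smaller number of lincRNAs in the last restrictions.

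When 1 sample was left out, counts ranged from 17 to 24 higher and 46 to 70 lower on day 3, 11 to 19 and 32 to 59 on day 7, 14 to 21 and 19 to 29 on day 14, 3 to 12 and 3 to 6 on day 21, and 26 to 53 and 7 to 12 for day 21 against day 3. Deviations from the group mean had a mean r of 0.022 over 51 pairs of the same replicate number (from -0.52 to 0.57). For pairs of the same letter it was 0.030 over 49 pairs. A mean near 0 over so wide a range cannot settle whether samples were paired. With the letter as replicate block, 10 lincRNAs were lower on day 21, and no other count moved by over 1.5 times under either block. Of 80 calls for the named lincRNAs, 50 passed under every alternative, and none reversed.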
